A study of Mus musculus with 3 samples.

Results

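HOX genes are transcription factor genes that lie side by side in chromosomal clusters. The MEIS and PBX genes encode the partner proteins that bind DNA together with HOX proteins. Members were taken from the gene table of glucose oxidase plus Et2HOBA against control: every protein-coding row whose symbol is a gene of cluster Hoxa, Hoxb, Hoxc or Hoxd, a Meis gene or a Pbx gene. This gave 26 of the 18287 listed genes, 20 HOX genes and 6 cofactor genes, and the same 26 symbols stood in the table of glucose oxidase against control. No gene in the table had fewer than 5 reads in its best-covered library, so being a member depended on the level itself, and the member nearest that floor, Hoxb2, had 8, 8 and 2 reads. The GENCODE M21 annotation holds 39 protein-coding HOX genes, of which 7 of 11 in Hoxa, 8 of 10 in Hoxb, 5 of 9 in Hoxd and 0 of 9 in Hoxc were listed. The 19 HOX genes that were not listed include Hoxa4, Hoxa9 and all of Hoxc, and Meis1 was not listed among the cofactors.

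RNA sequencing was done on purchased mouse aortic endothelial cells, the lining cells of the aorta; the strain, age and sex of the source animals are not given in the sources used here. The control library came from cells labelled as control. The glucose oxidase library came from cells given 5 mU/mL of this hydrogen peroxide-producing enzyme for 30 min. The glucose oxidase plus Et2HOBA library came from cells given the same enzyme dose and time and ethyl-2-hydroxybenzylamine at 0.2 mM for 24 h, a scavenger of reactive lipid aldehydes called isolevuglandins. Each group is 1 library, and no group with Et2HOBA alone was analysed here, so nothing separates Et2HOBA from the library it was given in. Whether RNA was taken at the end of the 30 min, and how the 24 h lie relative to the enzyme, is not given in the sources used here. No test between conditions was possible, and every interval below is a 95% exact (Clopper-Pearson) interval on the reads of 2 libraries, which covers counting error only; intervals of shares rest on 1 library. Reads copied by PCR are not independent molecules, so the true error is larger. Where 3 values follow each other, they belong to the control library, the glucose oxidase library and the library with Et2HOBA, in that order.

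Each HOX protein carries a homeodomain, a DNA-binding fold that recognises a short sequence held in common by many HOX proteins. Genes with the same paralog number in different clusters descend from 1 ancestral gene and encode the most similar proteins. Low paralog numbers are expressed toward the head of the embryo and high numbers toward the tail, and adult endothelial cells keep part of this positional pattern. PBX and MEIS proteins, whose homeodomains carry extra residues in a loop, bind beside HOX proteins and sharpen their choice of sites.

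Over the listed genes the libraries held 35005089 to 40212212 reads. The 10 endothelial markers were all listed, with 5373 to 78258 reads each in control, 2877 to 46273 after glucose oxidase and 1688 to 63665 with Et2HOBA. Their summed share was 10010, 6130 and 5215 CPM, reads scaled to the library's listed total. Emcn, with 5373, 6333 and 7936 reads, and Cdh5, with 55360, 45034 and 63665, were the exceptions. Every other marker in the list was lower than control in both treated libraries. These ranged from Tek, with 6786, 2877 and 1688 reads, to Pecam1, with 37351, 26919 and 29562. Markers of other cell types did not stay level: the summed fibroblast list had 3.81, 39.1 and 70.7 CPM, nearly all from Pdgfra with 107, 1325 and 2821 reads. In that list Col1a1 stayed at 23 to 30 reads and Col3a1 at 0 to 12, and the other 3 of 6 genes were not listed. The summed macrophage and leukocyte list had 230.1, 491.8 and 698.3 CPM, nearly all from Cd68. In that list Cd14 had 55, 136 and 272 reads, Csf1r stayed at 6 to 12, and Ptprc and Adgre1 were not listed. The mesothelial and epithelial list had 27.3, 71.4 and 97.2 CPM, nearly all from Msln, with Krt8 at 1 to 6 reads. Smooth muscle markers summed to 1.22 to 2.46 and neural markers to 0.86 to 2.06 CPM. In bulk RNA, a change in the make-up of a culture and a change of RNA per cell cannot be told apart. The part of other cell types in the results below was not tested.

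The homeoboxes of Hoxb9 and Hoxa5, the HOX genes with the largest differences from control, are shown because a homeobox, the stretch of 180 bases that encodes the homeodomain, is what HOX genes have in common. They are from the GENCODE M21 transcripts (GRCm38), 5′ to 3′ on the coding strand, and capitals mark the 18 bases of a motif in the DNA-contacting helix that was used to place them. Each lies in exon 2 of 2: Hoxb9 at chr11:96274659-96274838 (plus strand) and Hoxa5 at chr6:52202632-52202811 (minus strand).
Hoxb9: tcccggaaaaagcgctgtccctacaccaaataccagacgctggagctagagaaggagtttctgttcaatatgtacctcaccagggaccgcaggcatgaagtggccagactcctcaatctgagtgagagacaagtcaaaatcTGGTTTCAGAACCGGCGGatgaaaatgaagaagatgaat
Hoxa5: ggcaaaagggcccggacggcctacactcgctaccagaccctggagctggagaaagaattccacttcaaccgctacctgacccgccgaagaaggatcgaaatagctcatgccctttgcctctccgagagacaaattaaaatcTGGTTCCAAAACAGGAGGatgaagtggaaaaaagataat
These 2 sequences differ at 71 of the 180 bases (60.6% identity), with a longest identical run of 11 bases. Across the 11 pairs of listed HOX genes with the same paralog number, homeobox identity ran from 74.4% to 93.9%, and across the 179 other pairs from 53.9% to 88.9%. Sequence shared with other genes was small for the genes described first: 0.24% of the 50-base stretches of the longest Hoxb9 transcript, and none of those of Hoxa5, Hoxb7, Hoxb8, Hoxd8 or Hoxd9, occur in a transcript of another gene.

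With the exception of Hoxb9, and of Hoxa5 with Et2HOBA, the listed HOX genes stayed within 1 log2 unit of control in both treated libraries. Ratios are of normalized counts plus a pseudocount of 10, on the log2 scale, which understates the change of low genes. After glucose oxidase 1 of 20 HOX genes was higher than control at this limit and 0 lower. Of protein-coding genes 4.53% were higher and 4.76% lower, and of all listed genes 4.07% and 8.6%. With Et2HOBA 1 HOX gene was higher and 1 lower, beside 7.33% and 9.3% of protein-coding genes and 6.66% and 8.04% of all listed genes. Counts of 0 or 1 among 20 are near these backgrounds. The HOX genes had a median log2 ratio of 0.047 after glucose oxidase, and -0.22 with Et2HOBA, and the medians over all protein-coding genes were 0.038 and 0.0011. Over HOX genes with no exon overlapping another gene, an alternative chosen after seeing the data, the HOX medians were -0.038 and -0.087, so the sign of the first depends on the genes kept. The counting interval excluded equal levels for 8 of 20 HOX genes after glucose oxidase (5 higher, 3 lower) and for 11 of 20 with Et2HOBA (4 higher, 7 lower). The same held for 66.3% and 75% of protein-coding genes, and for 60.3% and 64% of all listed genes. The comparisons share the control library, so their values stand side by side and are not independent.

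Hoxb9, a gene of the posterior part of the Hoxb cluster known for its role in patterning of the ribs and in mammary gland development, showed the largest difference among the members. Hoxb9 (ENSMUSG00000020875.9, chromosome 11, 96271457 to 96276595, plus strand) had 3 control reads, 224 reads after glucose oxidase and 577 in the Et2HOBA library. The control library thus lay near 0 and both treated libraries were far above it, the one with Et2HOBA highest. The ratio of normalized counts to control was 79.8 (95% interval 26.96 to 389.97) after glucose oxidase and 191 (65.1 to 929) with Et2HOBA; the intervals are wide because they rest on 3 control reads. The treated libraries differed from each other by 2.39-fold (2.05 to 2.81). With the pseudocount the log2 ratios to control were 4.23 and 5.45, which ranked 8 and 3 from the top among the 18287 listed genes. In the authors' deposited tables the values were 1.77 and 3.76, on scales that shrink low counts to different degrees. Scaled to exon length, the level of Hoxb9 was 0.032, 2.49 and 5.57 RPKM, which scales reads to the library's listed total and to exon kilobases. Among protein-coding genes of each library these levels stood at the percentiles of 2.85, 32.2 and 49.1. No exon of Hoxb9 overlaps an annotated exon of another gene. Pdgfra, Cd68 and Msln, which held nearly all reads of the fibroblast, macrophage and mesothelial lists above, were higher in the same libraries. Col1a1, Col3a1, Csf1r and Krt8 of these lists stayed at low counts. The part of other cell types in the Hoxb9 difference was not tested.

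Hoxb9 was 1 of 642 listed genes with at most 3 control reads, which are in the table through their treated libraries and so had to be higher in at least 1 of them. Other genes of this kind lay near it, looked up after the value of Hoxb9 was seen. Car6, a secreted carbonic anhydrase, had 0, 203 and 378 reads and log2 ratios to control of 4.46 and 5.22, the first above that of Hoxb9. Gm3776 had 1, 166 and 200 reads and ratios of 4.05 and 4.21.

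**Figure D1:**
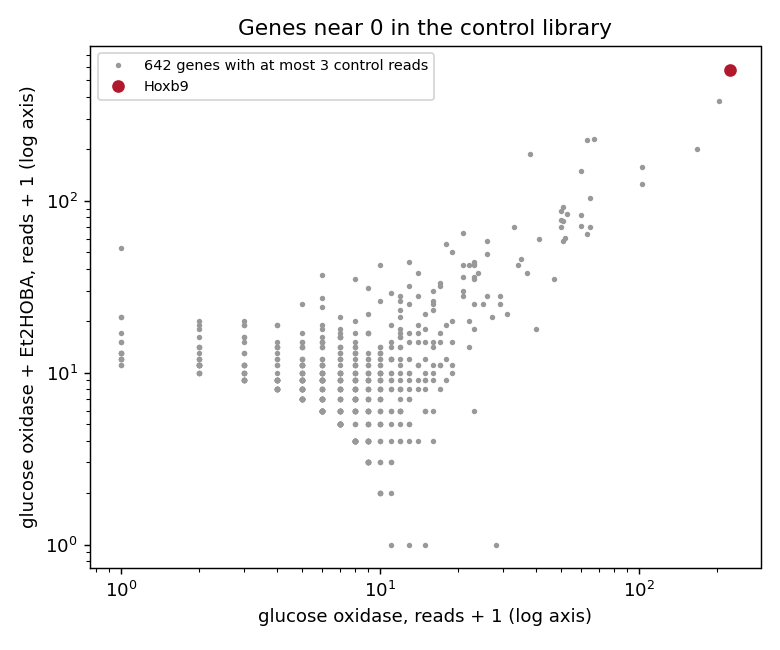
Reads plus 1 in the glucose oxidase library (x axis, log scale) and in the glucose oxidase plus Et2HOBA library (y axis, log scale) for the 642 listed genes with at most 3 control reads. Each grey point is 1 gene; Hoxb9, in red, is at 224 and 577 reads, with Car6 next to it at 203 and 378.

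The nearest genes to Hoxb9 in its cluster did not share its pattern. Hoxb8, known for blocking myeloid differentiation when overproduced, had 2751, 2123 and 2810 reads. It was lowest in the glucose oxidase library, at 0.825 of control (0.779 to 0.873), and at 1.01 of control (0.963 to 1.07) with Et2HOBA; scaling by total counts turned the latter log2 ratio from 0.021 to -0.13. Hoxb7, which lies next to it and has been linked to growth factor expression in tumour cells, had 2883, 2159 and 1807 reads. Its level was 0.801 of control (0.757 to 0.847) after glucose oxidase and 0.623 (0.587 to 0.661) with Et2HOBA, a stepwise order across the 3 libraries. Hoxb7 and Hoxb8 were the HOX genes with the highest level per length in every library. In control Hoxb7 stood at 51.9 RPKM and at the percentile of 90.4 among protein-coding genes, and Hoxb8 at 29.0 and 83.8.

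The remaining Hoxb genes differed by less. Hoxb4, which expands blood stem cells when overproduced, was the only Hoxb gene other than Hoxb9 whose interval lay above equal levels in both treated libraries, with 762, 933 and 1059 reads. This was 1.31 times control (1.19 to 1.44) and 1.38 times control (1.26 to 1.52). Hoxb3 had 278, 262 and 204 reads, Hoxb5 had 251, 243 and 209, and Hoxb6 had 693, 670 and 608. Hoxb5 has been reported to activate the VEGF receptor gene Kdr and Hoxb3 to act in vessel growth. After glucose oxidase the intervals of these 3 genes included equal levels. With Et2HOBA they lay below control, at 0.729 (0.606 to 0.877) for Hoxb3, 0.827 (0.685 to 0.998) for Hoxb5 and 0.872 (0.780 to 0.973) for Hoxb6. Antisense transcript Hoxb3os overlaps 52.9% of the exon bases of Hoxb3, and how reads were assigned by strand is not given in the sources used here. The count of Hoxb3 may therefore hold reads of both or lack some of its own. Hoxb2, a hindbrain patterning gene, had 8, 8 and 2 reads and was the member with the fewest reads in its best-covered library.

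**Figure D2:**
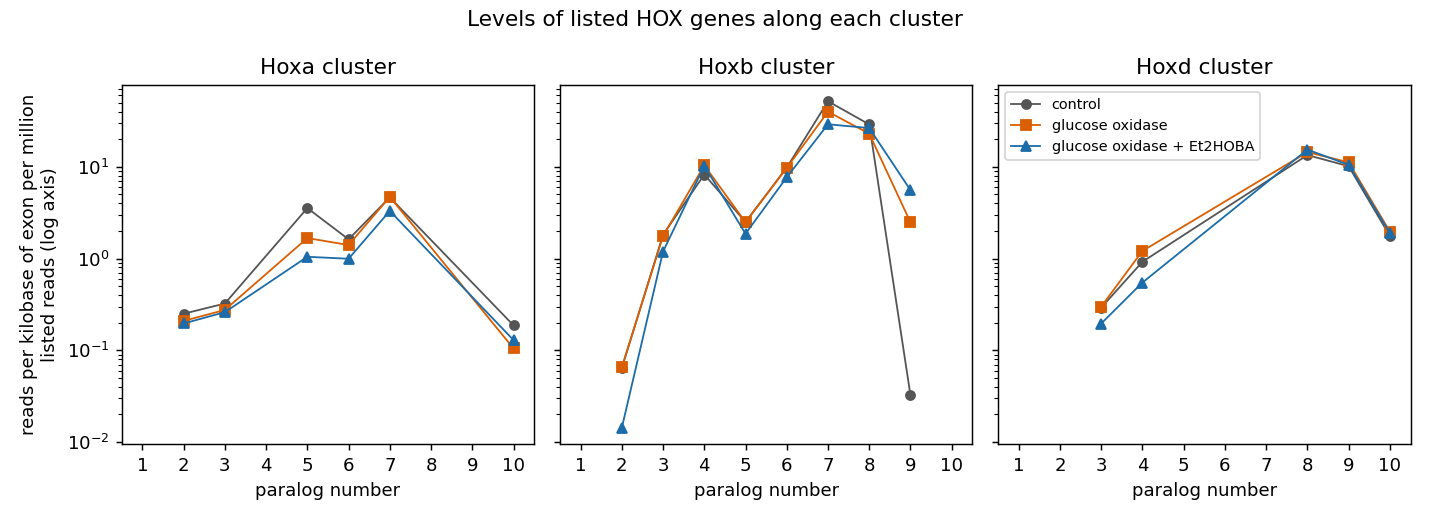
Level of the HOX genes reported here (y axis, RPKM, reads scaled to the listed total and to exon kilobases, log scale) by paralog number (x axis) in the Hoxa, Hoxb and Hoxd clusters; each symbol is 1 library, and lines join genes across numbers that are not shown. The widest gap between libraries is at Hoxb9, at 0.032 in control and 2.49 and 5.57 in the treated libraries.

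In the Hoxa cluster Hoxa5 was the gene that differed most. Hoxa5, reported to hold endothelial cells in a quiescent, non-sprouting state (ENSMUSG00000038253.6, chromosome 6, 52201754 to 52204587, minus strand), had 240 control reads, 110 reads after glucose oxidase and 79 in the Et2HOBA library. Both treated libraries were below control, the one with Et2HOBA lowest. The level was 0.490 of control (0.387 to 0.617) after glucose oxidase and 0.327 (0.250 to 0.423) with Et2HOBA, and between the treated libraries the ratio was 0.668 (0.494 to 0.899). On the log2 scale with the pseudocount these were -0.97, just inside the limit, and -1.49, past it. With a pseudocount of 1 or total-count scaling the first passed the limit too, at -1.02, and in the authors' deposited tables the values were -0.55 and -1.13. No exon of Hoxa5 overlaps another gene and its transcript shares no 50-base stretch.

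The other Hoxa genes lay nearer to control. Hoxa7, a patterning gene of the trunk, had 481, 474 and 383 reads, at 1.05 of control (0.926 to 1.20) and 0.791 (0.690 to 0.907). Hoxa6, its neighbour, had 51, 43 and 35 reads, and Hoxa3, reported to aid vessel growth in wounds, had 70, 58 and 63. Hoxa10, known for its role in the uterus, had 22, 12 and 17 reads. For Hoxa3, Hoxa6 and Hoxa10 every interval included equal levels. After glucose oxidase, a ratio of the size seen in Hoxa5 lies outside the interval of Hoxa3 but not that of Hoxa10. The hindbrain patterning gene Hoxa2 had 13 to 16 reads in each library. Hoxaas3 overlaps 20.4% of the exon bases of Hoxa7 on the opposite strand, and several antisense genes together overlap 25.4% of those of Hoxa3.

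All 5 listed Hoxd genes had log2 ratios above 0 after glucose oxidase, from 0.078 to 0.41, beside 6 of 8 in Hoxb and 2 of 7 in Hoxa. The median over all protein-coding genes was also above 0, at 0.038, so most of those genes had the same sign. Hoxd3, with 44 reads in both libraries, was above 0 through scaling only. No Hoxd gene passed the limit in either comparison with control. Hoxd8, which acts in lymphatic vessels, had 1328, 1391 and 1702 reads, or 1.12 (1.04 to 1.21) and 1.27 (1.18 to 1.37) times control. Hoxd9 had 781, 838 and 904 reads, at 1.15 times control in both treated libraries (1.04 to 1.27 in each). Hoxd10, reported to restrain vessel growth, had 115, 125 and 139 reads, and its intervals included equal levels (0.895 to 1.51 and 0.931 to 1.55). Hoxd4 behaved differently with Et2HOBA: it had 98, 125 and 65 reads, or 1.36 (1.04 to 1.79) and 0.659 (0.474 to 0.911) times control. Hoxd3, reported to switch endothelial cells to an invasive state, had 44, 44 and 33 reads, with intervals that included equal levels. Of the exon bases of Hoxd3 and Hoxd4, 62.3% and 52.3% also belong to exons of other genes on the same strand, mainly Gm28230 and each other. Their counts may hold reads of these genes or lack some of their own, and cannot be read as full counts of single genes.

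Some paralogs of the same number lay far apart. The widest gap was between Hoxb9 and Hoxd9, 4.03 log2 units after glucose oxidase and 5.25 with Et2HOBA. Next came Hoxa5 and Hoxb5, with 1.02 and 1.23 log2 units, and, with Et2HOBA alone among the comparisons with control, Hoxb4 and Hoxd4, with 0.99. In the other 6 sets of paralogs the highest and lowest member lay 0.16 to 0.68 log2 units apart after glucose oxidase and 0.25 to 0.49 with Et2HOBA. No replicate spread is available against which to set these gaps.

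Summed over clusters, Hoxb held most HOX reads in each library, the Hoxd share was higher in both treated libraries, and the Hoxa share was lowest with Et2HOBA. The Hoxb genes held 70.1% of HOX reads in control (95% interval 69.2 to 70.9), 67.1% after glucose oxidase (66.2 to 68.1) and 67.8% with Et2HOBA (66.95 to 68.7). The Hoxd share was 21.7% (20.97 to 22.5) in control, 25.6% (24.7 to 26.4) and 26.5% (25.7 to 27.4), and the Hoxa share 8.18% (7.67 to 8.71), 7.30% (6.79 to 7.83) and 5.64% (5.21 to 6.10). Hoxb7 and Hoxb8 together made up 51.8% of HOX reads in control and 43.4% and 43.1% in the treated libraries, while Hoxb9 went from 0.028% to 2.27% and 5.38%. Per length, the summed HOX level was 141, 128 and 117 RPKM, which is scaled to the listed total and not by the size factors used for the ratios. Scaled by size factors and not by length, the summed HOX reads were 10548, 10219 and 10325. The fall in RPKM thus depends in part on the scaling.

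Among the cofactors, Meis2 and Pbx2 were lower in both treated libraries and Pbx4 was higher. Meis2, which acts in heart and neural crest development, had 4274, 3361 and 2764 reads, or 0.841 (0.803 to 0.880) and 0.643 (0.612 to 0.674) of control. Pbx2 had 3407, 2816 and 2651 reads, or 0.884 (0.840 to 0.929) and 0.773 (0.735 to 0.814) of control. Pbx3 had 875, 688 and 824 reads and was lowest after glucose oxidase, at 0.841 of control (0.760 to 0.930), while its interval with Et2HOBA, 0.850 to 1.03, included equal levels. Per length, Pbx2 stood highest of the cofactors in every library, at 26.0, 22.1 and 18.1 RPKM.

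Pbx4, best known from the testis, had 23, 62 and 49 reads, 2.88 (1.76 to 4.87) and 2.12 (1.27 to 3.64) times control. Both treated libraries were above control, on few reads. It was the only cofactor past the limit: 1 of 6 passed after glucose oxidase, at a log2 ratio of 1.20, and 0 of 6 with Et2HOBA, where Pbx4 had 0.82. Of protein-coding genes 4.53% were higher and 4.76% lower past the limit after glucose oxidase, and 7.33% and 9.3% with Et2HOBA. With 6 genes, counts of 1 and 0 are near these shares. In the authors' deposited tables Pbx4 had values of 0.45 and 0.47. Meis3 had 3, 10 and 14 reads, with control lowest, on very few reads. Its ratio to control was 3.56 (0.918 to 20.1) after glucose oxidase and 4.64 (1.29 to 25.2) with Et2HOBA. Over the 6 cofactors the median ratios to control were -0.21 and -0.23 on the log2 scale, beside 0.038 and 0.0011 over all protein-coding genes.

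**Figure D3:**
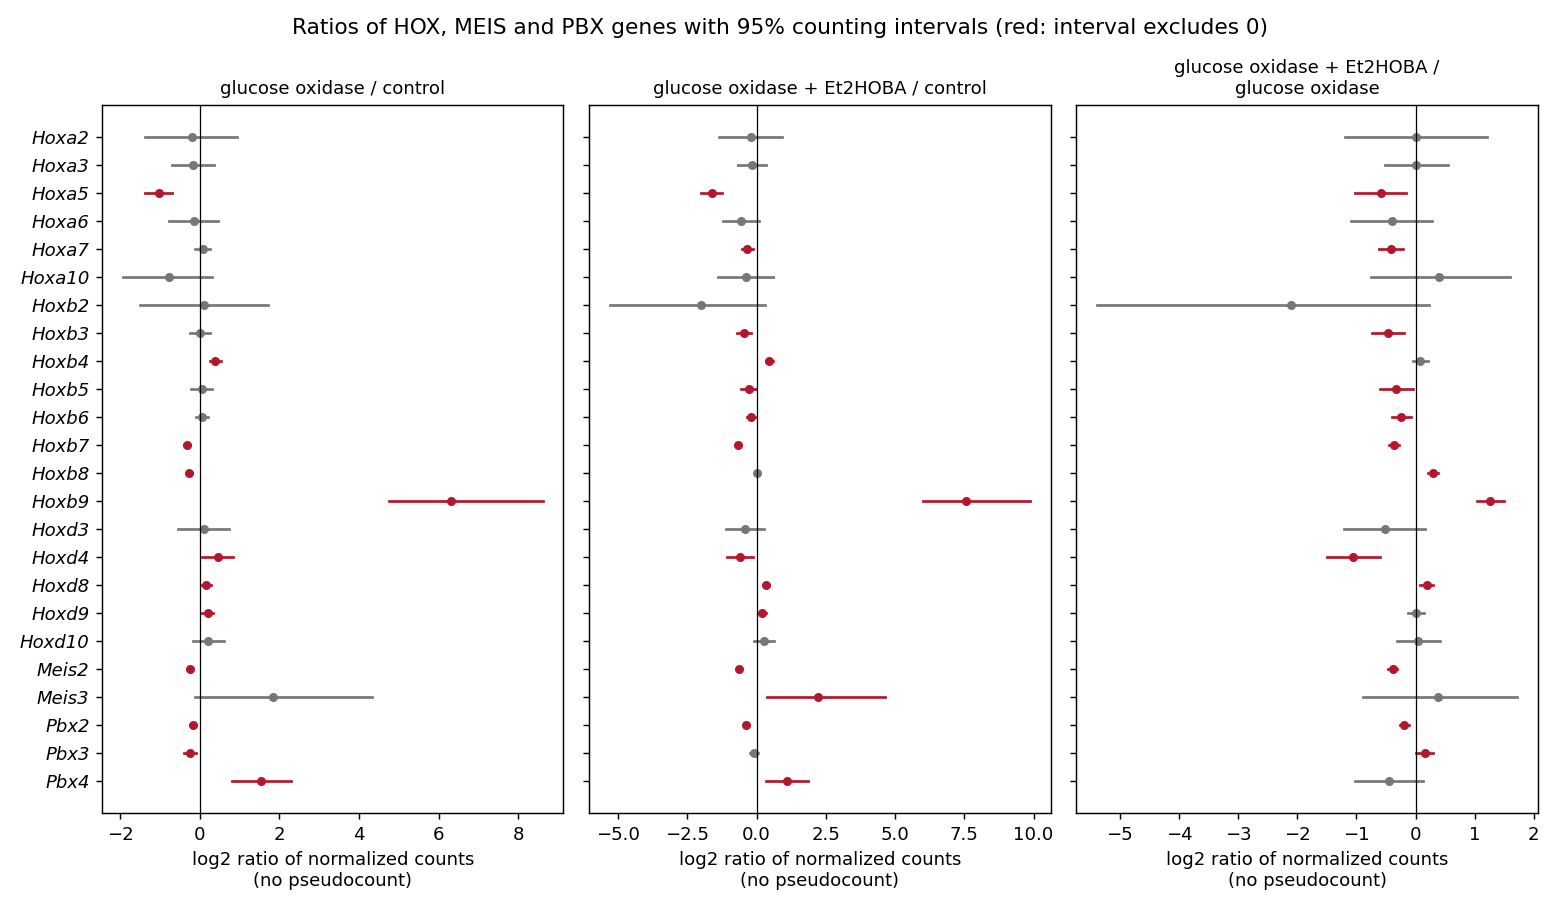
Log2 ratio of normalized counts without a pseudocount (x axis) for the HOX, MEIS and PBX genes reported here (y axis) in the 3 comparisons; points are the ratios of 2 single libraries and bars are 95% exact counting intervals, in red where the interval excludes equal levels. Hoxb9 lies far to the right against control, Hoxa5 lies to the left, and most other members lie close to 0.

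The RefSeq window of 300 bases around the Pbx4 transcription start (GRCm38.p6, chr8:69832374-69832673, plus strand) is shown because Pbx4 was the only cofactor past the limit; capitals mark a match to TGACNNNGC, the core of the antioxidant response element bound by NRF2.
Pbx4: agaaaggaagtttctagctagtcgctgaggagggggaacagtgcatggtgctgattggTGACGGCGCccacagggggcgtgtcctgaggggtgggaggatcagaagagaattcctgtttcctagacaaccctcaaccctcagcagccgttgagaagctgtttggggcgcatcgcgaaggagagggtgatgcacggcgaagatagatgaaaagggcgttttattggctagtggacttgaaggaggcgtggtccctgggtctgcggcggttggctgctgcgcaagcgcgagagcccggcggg
Windows were found for 17 of 26 members, 18 windows in all since Hoxa10 has 2. Both strands were searched for TGACNNNGC, for the MEIS core TGACAG and for the PBX-HOX composite TGATNNAT; TGACAG and TGACNNNGC can overlap. TGACNNNGC was in 3 of the 18 windows (Hoxa6, Hoxd10 and Pbx4) and in 12.4% of the 32851 windows of all genes. TGACAG was in 2 of 18 (Hoxa2 and Hoxa3), against 19.2% of all windows, and TGATNNAT in 2 of 18 (Hoxa2 and Hoxb8), against 8.85%. The member windows held a median of 19.5 CG dinucleotides, against 7 over all windows. A match describes letters only.

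Between the 2 treated libraries, 1 of 20 HOX genes was higher past the limit with Et2HOBA, again Hoxb9 with a log2 ratio of 1.22, and 0 were lower. Of protein-coding genes 0.971% were higher and 2.35% lower, and of all listed genes 6.39% and 2.15%. Hoxd4 came closest on the lower side, with a log2 ratio of -0.94 and a level 0.483 (0.352 to 0.657) of that after glucose oxidase, and passed the limit with a pseudocount of 1 (-1.04) and with total counts (-1.03). The interval excluded equal levels for 10 of 20 HOX genes, 3 higher (Hoxb8, Hoxb9 and Hoxd8) and 7 lower (Hoxa5, Hoxa7, Hoxb3, Hoxb5, Hoxb6, Hoxb7 and Hoxd4), against 59.3% of protein-coding and 54.7% of all listed genes. Hoxb8 was 1.23 times its level after glucose oxidase (1.16 to 1.30), and Hoxb7 was at 0.778 (0.730 to 0.828), so these neighbours lay on opposite sides. None of the 6 cofactors passed the limit, and Meis2, at 0.764 (0.727 to 0.804), had the lowest ratio among those with 100 or more reads in each library.

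Other transcribed units inside the clusters had low counts, with the exception of Hoxd3os1. Between the first and last listed HOX gene there were 6 further listed genes in Hoxa, 3 in Hoxb and 3 in Hoxd, of which 10 are annotated as lncRNA. Hoxd3os1, antisense within Hoxd, had the most reads, with 284, 286 and 228, or 1.08 (0.910 to 1.27) and 0.798 (0.667 to 0.953) times control. Hoxb5os had 80, 79 and 60 reads, and Hotairm1, a lncRNA of the Hoxa cluster, had 34, 21 and 32. Haglr, at the Hoxd3 end of its cluster, had 26, 29 and 11 reads, and with Et2HOBA stood at 0.420 of control (0.187 to 0.880). Gm28230, a read-through gene model of Hoxd3 and Hoxd4, had 31, 43 and 36 reads. None of these 12 genes passed the limit against control.

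Genes that regulate HOX clusters were then examined, from lists chosen by function. Of protein-coding genes 4.53% were higher and 4.76% lower past the limit after glucose oxidase, and 7.33% and 9.3% with Et2HOBA. At these shares lists this short hold few genes past the limit, so a count of 0 says little. None of the 12 MLL and trithorax genes, which keep HOX genes active, passed the limit in either comparison with control; their medians were 0.091 and -0.036. The largest ratios in that list belonged to Mllt3 (1499, 820 and 802 reads) and Men1 (3346, 2345 and 1913), both lower. None of the 19 Polycomb genes, which keep HOX genes silent, passed it either, with medians of 0.026 and 0.15; Pcgf6 came closest, with 633, 1138 and 1267 reads and log2 ratios of 0.93 and 0.98. The demethylases of the Polycomb mark differed in direction: Kdm6b had 2881, 4078 and 5311 reads and Kdm6a 3868, 2714 and 2346. Of 6 listed upstream factors, 0 passed the limit. The 8 listed genes that border the clusters also stayed within it, from -0.34 to 0.50 after glucose oxidase and from -0.45 to 0.90 with Et2HOBA. All of them lie beside Hoxa, Hoxc or Hoxd. The border genes of Hoxb in the list, Skap1, Calcoco2 and Ttll6, were not listed in the data. No gene bordering the cluster of Hoxb9 was therefore compared.

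Retinoic acid is a classical inducer of HOX genes, and its handling genes split. Of 13 listed genes, all protein-coding, 2 were higher and 3 lower past the limit in each comparison with control. Of protein-coding genes 4.53% were higher and 4.76% lower after glucose oxidase, and 7.33% and 9.3% with Et2HOBA. Of all listed genes 4.07% and 8.6% were higher and lower after glucose oxidase, and 6.66% and 8.04% with Et2HOBA. The medians were -0.57 and -0.62. Stra6, a retinol uptake receptor, had 10, 59 and 155 reads, at 6.31 (3.20 to 13.8) and 15.4 (8.15 to 32.8) times control. Cyp26b1, which degrades retinoic acid, had 450, 1463 and 2754 reads, at 3.48 (3.12 to 3.87) and 6.08 (5.50 to 6.73) times control. For both genes control was lowest and the library with Et2HOBA highest.

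Among 6 listed relatives of the MEIS and PBX genes, Tgif1, a repressor that competes at MEIS-like and retinoid sites, had 902, 3258 and 5302 reads and log2 ratios of 1.94 and 2.53. Tgif2, its close relative, had 244, 158 and 109 reads and passed the limit with Et2HOBA alone, at -1.10. Pknox1, a PBX partner, had 858, 846 and 1320 reads. Of 10 genes reported as HOX targets in endothelial cells, all listed, 2 were higher and 1 lower past the limit after glucose oxidase, and 3 were higher and 1 lower with Et2HOBA. Over protein-coding genes the shares higher and lower were 4.53% and 4.76% after glucose oxidase, and 7.33% and 9.3% with Et2HOBA. Over all listed genes the shares higher and lower were 4.07% and 8.6% after glucose oxidase, and 6.66% and 8.04% with Et2HOBA. Plaur, the urokinase receptor, had 837, 2944 and 4678 reads and log2 ratios of 1.90 and 2.46, and the VEGF receptor gene Kdr, also in the endothelial marker list, had 61640, 27584 and 24227 reads and ratios of -1.06 and -1.36. The list medians were -0.15 and -0.030.

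**Figure D4:**
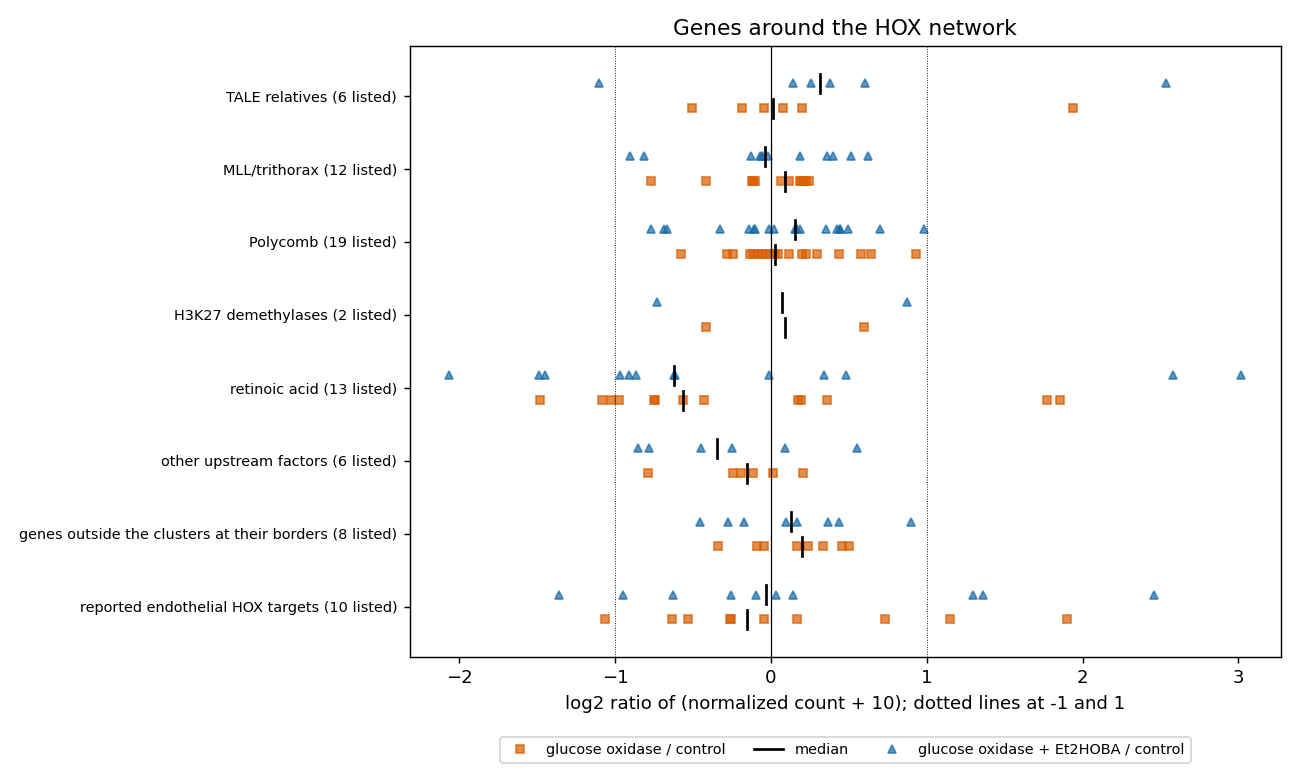
Log2 ratio of normalized count plus 10 against control (x axis) for the listed genes of 8 functional groups around the HOX network (y axis); squares are glucose oxidase, triangles are glucose oxidase plus Et2HOBA, black bars are medians and dotted lines mark -1 and 1. MLL, Polycomb and border genes all lie between the dotted lines. Some retinoic acid genes, some reported endothelial HOX targets, Tgif1 and, with Et2HOBA, Tgif2 reach beyond them.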

How the data were processed

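Polyadenylated RNA of 3 cultures was sequenced with a stranded kit, 1 library per group, per the labels' protocols. STAR and featureCounts are named as tools and mm10 as the build, per the submitters' processing notes; the annotation and the strand setting are not given in the sources used here. The authors deposited raw read counts for the control and glucose oxidase plus Et2HOBA libraries, and log2 values and differences whose transformation is not stated in the file headers.

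The log2 values fit a variance-stabilizing form, in which counts enter by their square root and an inverse hyperbolic sine. Inverting it with the control counts gave the counts of the glucose oxidase library, whole within 0.01 for 100% of 18258 genes matched by symbol (3.30% with control counts raised by 1); another 29 genes with repeated or date-like symbols were placed by whole reads. The step was checked on simulated data made with the same form, which cannot show whether the authors used that form. The deposited scale acts like a pseudocount of 71 to 209 reads, so values of different tables are not comparable.

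Counts were scaled by size factors from medians of ratios over the 3 libraries (1.03, 0.965 and 1.04), and 10 was added before taking log2. The limit of 1 has no error rate. Library totals were 35969965, 35005089 and 40212212 reads. Intervals were computed with scipy 1.17.1 and TMM factors with edgeR 4.0.16; edgeR's test was not used, since 1 library per group leaves no estimate of spread. Exon lengths, overlaps and homeoboxes came from GENCODE M21, where 17878 of 18287 gene IDs had the same version and position. The homeobox was placed by its conserved third-helix motif in the translated transcript.

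Members with 20 or more reads in at least 1 library (22 of 26) were to be named with their counts, and at most the 3 largest differences per functional list; some of these genes are not reported here, though counts and medians include them. Members and lists were chosen with earlier results of these data known. Alternatives were another pseudocount, other scalings, a filter on low counts, the deposited scale and a lower limit.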

Additional observations from a re-analysis of the deposited data

How the results depend on the processing

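Hoxb9 was past the limit against control under each of the alternatives tried, and Hoxa5 with Et2HOBA likewise. Counts of members past the limit are small and moved with single genes near it. With a pseudocount of 1 the HOX count was 2 after glucose oxidase (Hoxa5 added), 3 with Et2HOBA against control and 3 between the treated libraries, and the cofactor count was 2 in both comparisons with control. With total counts, which shift the median of all genes with Et2HOBA by -0.13, the HOX count was 2 after glucose oxidase and 2 between the treated libraries, and the cofactor count with Et2HOBA was 1. On the scale of the authors' deposited tables the cofactor count after glucose oxidase was 0. With a limit of 0.5 the HOX counts were 2, 5 and 4 and the cofactor counts 3 and 4 against control. Shares over all genes at these other settings are not given here. The counts therefore have no background beside them and cannot be read as a response of the members. The cofactor median with Et2HOBA was -0.38 with total counts, -0.37 without low genes and -0.095 over cofactors with no exon overlap, an alternative chosen after seeing the data. The HOX median with Et2HOBA was -0.35 with total counts and -0.087 without overlapping genes, which turned the medians after glucose oxidase (-0.038) and between the treated libraries (from -0.12 to 0.040) in sign. Scaling by TMM moved none of these. The table of the treated libraries gave no member a value, so its deposited scale could not be applied. No paired analysis was possible because each group has 1 library. Depth limits Hoxa2, Hoxa10, Hoxb2 and Meis3, whose intervals span differences of 2-fold or more.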

Other observations

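Among other genes near 0 in control, chosen after their values were seen, the TNF family ligand gene Tnfsf18 had 3, 66 and 227 reads in the control, glucose oxidase and Et2HOBA libraries. The small heat shock protein gene Hspb1 had 2, 62 and 224 reads.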
